A study of Homo sapiens with 22 samples.

Results

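The 9 genes described here encode proteins of the nuclear lamina and of the high mobility group (HMG) of chromatin proteins: the lamins LMNA, LMNB1 and LMNB2, the lamina-associated proteins LBR and TMPO, and the HMG proteins HMGB1, HMGB2, HMGA1 and HMGA2. They were picked by name as a set, with earlier results of these data in view, and are 9 of the 17379 gene names listed in the SMYD3 knockout table, 59076 in the SMYD3 siRNA table and 57316 in each of the ASO and UHRF1 siRNA tables. All 9 were found and passed the filter on low values in every table. Since the comparisons below had a part in choosing them, their differences are given as a description, and a member is called higher or lower only to set it beside the share of all genes called by the same rule.

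RNA was sequenced from 22 libraries of HN-6 cells, a squamous carcinoma line of the human head and neck. Every group, controls included, received human IFN-β at 1000 U/ml for 24 h, so no group shows these genes without interferon. SMYD3, a lysine methyltransferase, was removed or lowered in 3 ways, and UHRF1, which guides maintenance DNA methylation, in 1 way. The groups were a SMYD3 KO line derived from HN-6 against parental HN-6 (3 libraries each), the siRNA si1SMYD3 against the control siRNA siNC (3 each), the antisense oligonucleotide ASO081 against phosphate-buffered saline, PBS (2 each), and siUHRF1 against its own siNC (3 each). The siRNA and ASO exposures lasted 72 h. The knockout is a single cell line, and each siRNA or oligonucleotide is a single reagent, so line-to-line or reagent-to-reagent variation was not measured. The 3 libraries of the knockout line share that origin.

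Lamins are intermediate filament proteins that form a meshwork under the inner nuclear membrane. LMNA encodes the A-type lamins A and C, LMNB1 and LMNB2 encode the B-type lamins, LBR is an inner membrane receptor for B-type lamins and heterochromatin that is also a sterol reductase, and TMPO encodes the lamina-associated polypeptide 2 isoforms. HMGB1 and HMGB2 bend DNA through HMG boxes, and HMGB1 outside the cell is a danger signal. HMGA1 and HMGA2 bind AT-rich DNA through AT-hooks and are often abundant in carcinomas. Loss of LMNB1 and of HMGB2 is a widely used mark of senescent cells, and several of these genes are transcribed in step with cell division.

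On GRCh38 (GENCODE release 29), LMNA lies on chromosome 1 from 156082573 to 156140089 (plus strand) and LBR on the same chromosome from 225401502 to 225428925 (minus). LMNB1 lies on chromosome 5 from 126776623 to 126837020 (plus) and LMNB2 on chromosome 19 from 2427638 to 2456996 (minus). TMPO, from 98515512 to 98550379, and HMGA2, from 65824131 to 65966295, are on the plus strand of chromosome 12. HMGB1 is on chromosome 13 from 30456704 to 30617597 (minus), HMGB2 on chromosome 4 from 173331695 to 173335125 (minus) and HMGA1 on chromosome 6 from 34236873 to 34246231 (plus). All are protein-coding, and values are summed over each gene, so lamin A against lamin C, or the TMPO isoforms, cannot be told apart.

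Promoter windows, the 250 bases before an annotated start, were available from RefSeq (GRCh38.p14) for 7 of the members, with 14 windows between them. HMGB2 and HMGA2 are named only. Below are windows of LMNB1, TMPO and HMGB1, which were lower with siUHRF1 in every library, and of HMGA1, whose siUHRF1 and siNC libraries overlapped. They were chosen after the values were seen. Capitals mark CCAAT boxes on either strand (CCAAT or ATTGG). Other motifs that were searched are left in lower case: the SP1 letters occur in the LMNB1, TMPO and HMGA1 windows and the interferon response core in the TMPO window.
LMNB1, chr5:126776886-126777135, plus strand: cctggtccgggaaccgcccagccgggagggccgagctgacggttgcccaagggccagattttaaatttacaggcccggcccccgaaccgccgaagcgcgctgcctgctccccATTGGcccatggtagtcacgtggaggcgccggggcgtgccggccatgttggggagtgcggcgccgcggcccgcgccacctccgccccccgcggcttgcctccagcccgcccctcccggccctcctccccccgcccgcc
TMPO, chr12:98515323-98515572, plus strand: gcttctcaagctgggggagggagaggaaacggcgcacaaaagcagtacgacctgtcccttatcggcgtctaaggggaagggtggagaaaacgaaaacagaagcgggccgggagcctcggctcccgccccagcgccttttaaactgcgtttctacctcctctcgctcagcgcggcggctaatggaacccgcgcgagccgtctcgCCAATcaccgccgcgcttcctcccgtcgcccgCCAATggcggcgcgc
HMGB1, chr13:30465937-30466186, minus strand: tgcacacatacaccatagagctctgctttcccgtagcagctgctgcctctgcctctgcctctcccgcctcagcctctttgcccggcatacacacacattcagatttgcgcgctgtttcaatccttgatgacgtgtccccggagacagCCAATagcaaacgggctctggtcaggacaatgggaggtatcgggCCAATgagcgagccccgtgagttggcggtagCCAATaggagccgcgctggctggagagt
HMGA1, chr6:34236623-34236872, plus strand: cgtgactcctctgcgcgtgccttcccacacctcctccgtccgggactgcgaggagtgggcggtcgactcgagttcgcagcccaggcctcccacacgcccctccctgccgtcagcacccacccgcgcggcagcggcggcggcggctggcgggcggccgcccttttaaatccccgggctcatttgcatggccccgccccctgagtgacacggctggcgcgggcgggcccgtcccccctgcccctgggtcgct

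The 3 CCAAT boxes of this HMGB1 window begin 103, 59 and 28 bases before the start, and those of the TMPO window 47 and 15 bases before it. Over all windows of a gene, CCAAT was found in 5 of the 7 members (HMGA1, HMGB1, LMNA, LMNB1 and TMPO), HMGA1 holding it at another start, and in 32.0% of 35116 RefSeq windows of the same length. The LMNB1 window at chr5:126776373-126776622 and the HMGB1 window at chr13:30617598-30617847, not printed, hold none. LMNB2 and LBR, also lower in every siUHRF1 library, hold none either. The printed windows therefore do not show a link between CCAAT and the siUHRF1 values. The cell cycle homology region (TTTGAA or TTCGAA, either strand) was found in HMGB1 and LMNB2 and in 14.3% of all windows. The E2F letters TTTCCCGC or TTTGGCGC were found in LMNA and in 1.93% of all windows, and the interferon response core GAAANNGAA in TMPO and in 6.88%. The SP1 letters GGGCGG were in 6 members and in 42.6% of all windows. A gene with several windows has more chances to hold a motif than a single window, so these shares are not on the same footing. A match describes the letters and does not show binding.

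Libraries held between 24783605 and 62921144 reads in genes. Each targeted transcript had lower values in all depleted libraries than in all of their controls. SMYD3 averaged 93.6 ± 18.5 in the SMYD3 KO line and 321.9 ± 18.3 in parental cells (deposited normalized counts, SD, n = 3 each). SMYD3 averaged 2.85 ± 0.207 CPM (read counts scaled to library size) with si1SMYD3 and 15.1 ± 1.72 with siNC, and 3.74 ± 0.639 CPM with ASO081 and 21.5 ± 0.686 with PBS. UHRF1 averaged 2.23 ± 0.420 CPM with siUHRF1 and 64.5 ± 1.73 with siNC. Its log2 fold change was 0.44 ± 0.03 in the SMYD3 knockout, -1.68 ± 0.14 with si1SMYD3 and 0.36 ± 0.06 with ASO081. Each was called as fitted. The knockout value depends on scaling, since leaving out mitochondrial genes shifted the median log2 fold change of all genes there by -0.37. All 10 squamous epithelial markers were detected in every group. Genes of mitochondrial DNA held 4.82% to 4.88% of reads in the SMYD3 KO line against 14.9% to 15.7% in parental cells, and 5.73% to 6.78% with si1SMYD3 against 6.63% to 10.2% with siNC. The other tables hold 0 reads for them.

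**Figure D1:**
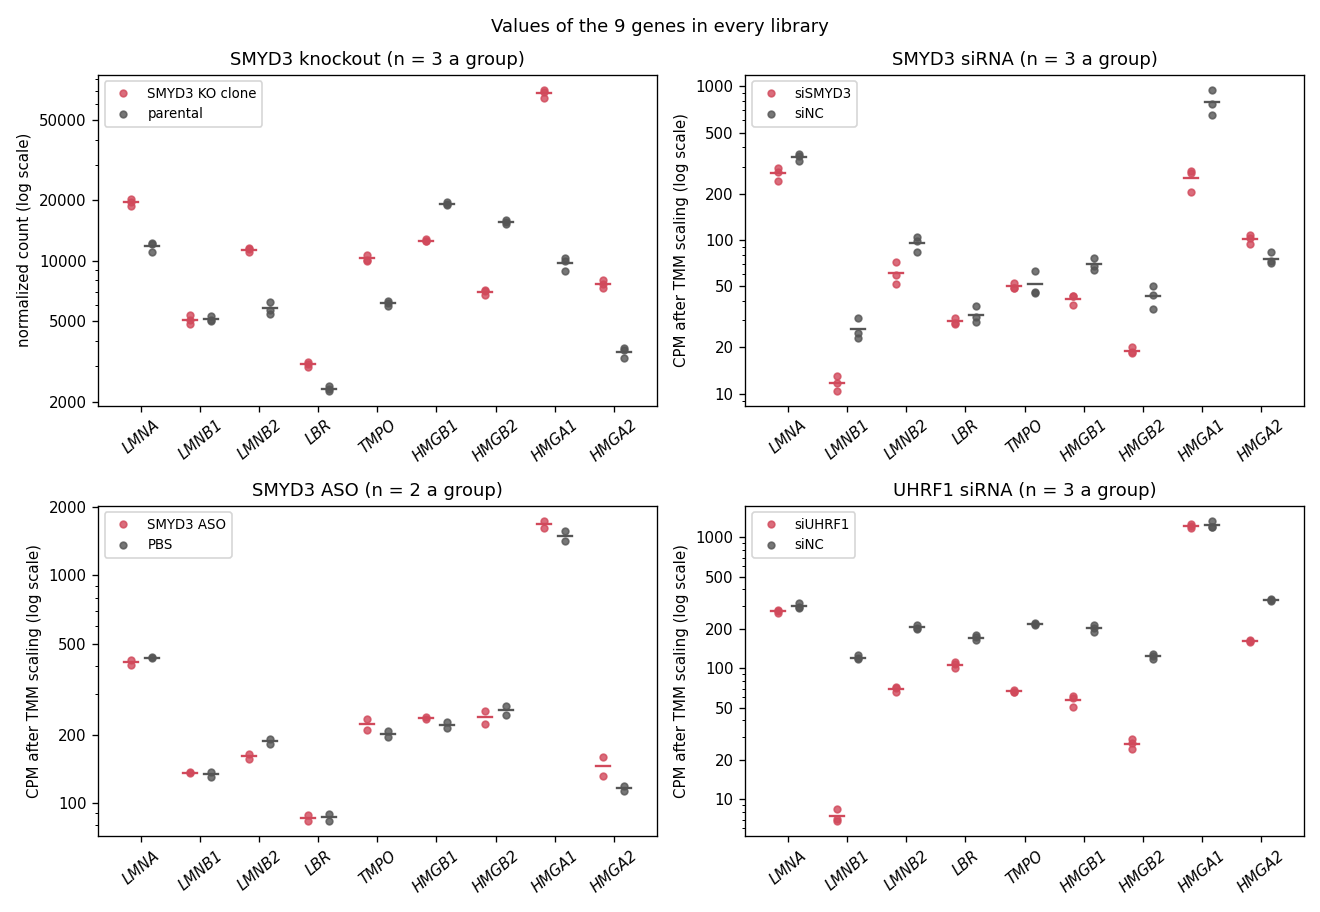
Values of the 9 genes in each library (points) with group means (lines), depleted cells in red and their controls in grey, on log axes. The knockout panel shows deposited normalized counts and the others CPM after TMM scaling, so panels and genes are not comparable in height. HMGA1 stands far above its control in the knockout and below it with si1SMYD3, and LMNB1 lies lowest with siUHRF1.

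LMNB1 was the member with the widest gap after UHRF1 depletion. It was 6.78, 7.11 and 8.48 CPM with siUHRF1, against 125.3, 119.2 and 117.9 CPM with siNC. Every siUHRF1 library was far below every siNC library, a log2 fold change of -4.02 ± 0.07 (SE) or 16.2-fold lower, the 54th of 18349 tested genes by size of change. In these bulk samples, fewer cells of a type and less RNA per cell cannot be told apart. With si1SMYD3, LMNB1 was 10.5, 11.7 and 13.0 CPM, against 31.1, 22.9 and 24.8 CPM with siNC, again with no overlap and a log2 fold change of -1.16 ± 0.12.

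SMYD3 KO cells did not show a lower LMNB1. Their normalized counts were 5070, 5359 and 4882, against 5028, 5057 and 5344 in parental cells, and the groups overlapped (log2 fold change -0.01 ± 0.04). This value depends on scaling: it was -0.29 ± 0.04 with upper quartile factors and -0.38 ± 0.04 without mitochondrial genes, and was called lower under each. With ASO081 the mean was 136.0 ± 1.50 CPM, against 133.7 ± 4.16 with PBS (SD, n = 2 each), also overlapping.

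LMNA, the A-type lamin gene, moved less than LMNB1 in the siRNA comparisons. Its normalized counts were 19680, 18630 and 20300 in SMYD3 KO cells, against 12250, 11120 and 12070 in parental cells. All 3 knockout libraries were higher, by a log2 fold change of 0.73 ± 0.04. With si1SMYD3 it was 240.3, 277.4 and 295.4 CPM, against 353.2, 363.6 and 324.0 with siNC, with no overlap and a log2 fold change of -0.36 ± 0.09.

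LMNA differed little with siUHRF1, which gave 280.6, 262.5 and 273.7 CPM, against 313.4, 294.3 and 287.6 with siNC. The groups did not overlap, at a log2 fold change of -0.13 ± 0.05 and an edgeR adjusted p of 0.0156. The call was lost without siUHRF1 replicate 2 (adjusted p = 0.106), without siUHRF1 replicate 3 (0.0541) and without siNC replicate 1 (0.0745). With ASO081, LMNA averaged 416.6 ± 14.7 CPM, against 435.4 ± 3.15 with PBS, a log2 fold change of -0.06 ± 0.06 that was not called.

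LMNB2, the other B-type lamin gene, was apart from its control in all 4 comparisons, but not in the same direction. Its normalized counts were 11580, 11020 and 11450 in SMYD3 KO cells, against 6259, 5466 and 5682 in parental cells. The knockout line was 1.96-fold higher (log2 fold change 0.97 ± 0.05). With si1SMYD3 it was 51.8, 59.3 and 71.4 CPM, against 105.0, 97.8 and 83.0 with siNC, every treated library being lower (log2 fold change -0.65 ± 0.11).

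siUHRF1 also left LMNB2 lower, at 72.4, 66.2 and 70.5 CPM, against 215.3, 198.6 and 204.2 with siNC. The groups were 2.96-fold apart with no overlap. With ASO081 it was 155.7 and 165.0 CPM, against 182.0 and 191.3 with PBS, a log2 fold change of -0.22 ± 0.06 (edgeR adjusted p = 0.0179). That call was lost without ASO081 replicate 1 (adjusted p = 0.0681) and without PBS replicate 2 (0.164). LMNB2 shares 257 exon bases with TIMM13 on the same strand, whose reads came to 9.42% to 29.5% of those of LMNB2. How reads in the shared bases were assigned is not given in the sources used here.

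LBR and TMPO, genes of lamina-associated proteins, differed in the same direction in the comparisons where both were called as fitted, but not by the same size. In SMYD3 KO cells LBR averaged 3055 ± 84.1, against 2321 ± 62.0 in parental cells (normalized counts, SD, n = 3 each), and no libraries overlapped. Its log2 fold change of 0.40 ± 0.04 shrank to 0.03 ± 0.04, not called, without mitochondrial genes. TMPO averaged 10290 ± 366 in SMYD3 KO cells, against 6161 ± 178 in parental cells, a log2 fold change of 0.74 ± 0.04 without overlap.

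Under si1SMYD3 neither stood apart. LBR averaged 29.5 ± 1.50 CPM, against 32.7 ± 3.98 with siNC, and TMPO 49.95 ± 2.26 CPM, against 51.5 ± 10.1 with siNC. In the siNC group, TMPO was 63.2 CPM in replicate 1 and 45.8 and 45.5 in the others, which fell on either side of the treated libraries. With ASO081, LBR overlapped PBS, and TMPO was 210.0 and 233.0 CPM, against 196.0 and 206.8 with PBS, a difference that was not called.

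UHRF1 depletion gave lower values for both genes. LBR averaged 106.2 ± 5.83 CPM with siUHRF1, against 171.7 ± 8.34 with siNC (log2 fold change -0.69 ± 0.05). TMPO was 65.7, 68.2 and 66.3 CPM, against 223.1, 213.9 and 217.9 with siNC, 3.27-fold lower. Neither overlapped. TMPO shares 713 exon bases with TMPO-AS1 on the opposite strand, whose reads came to 1.2% to 6.99% of those of TMPO, and whether counting used the strand is not given in the sources used here.

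HMGB1 and HMGB2, the HMG-box genes, were lower in SMYD3 KO cells, where most other members were higher. HMGB1 averaged 12610 ± 188 in SMYD3 KO cells, against 19260 ± 367 in parental cells, a log2 fold change of -0.61 ± 0.03. HMGB2 was 7176, 6749 and 7086, against 15270, 15580 and 15960, 2.23-fold lower (all normalized counts). No libraries overlapped for either gene. HMGB1 lies on chromosome 13, whose 293 tested genes had a median log2 fold change of -0.43 in this comparison against -0.02 over all genes, and the part of that in the HMGB1 value was not tested.

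The siRNA comparisons gave lower HMGB values too. With si1SMYD3, HMGB1 averaged 41.5 ± 3.10 CPM, against 69.2 ± 6.33 with siNC (log2 fold change -0.74 ± 0.09). HMGB2 was 18.5, 18.5 and 20.3 CPM with si1SMYD3, against 50.2, 35.3 and 43.6 with siNC (-1.17 ± 0.11). The HMGB2 value with si1SMYD3 was close to its -1.16 ± 0.03 in the knockout, though the comparisons have different controls and the difference was not tested.

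With siUHRF1, HMGB1 averaged 57.0 ± 5.33 CPM, against 202.7 ± 11.8 with siNC, 3.55-fold lower. HMGB2 was 24.1, 27.0 and 28.6 CPM, against 124.6, 117.2 and 128.0 with siNC, 4.64-fold lower. All treated libraries were below all controls. With ASO081, HMGB1 averaged 236.1 ± 2.28 CPM, against 220.1 ± 8.75 with PBS, and HMGB2 238.8 ± 21.7, against 255.6 ± 16.5, and neither was called. Rows of HMGB1 pseudogenes held reads equal to 13.2% to 30.1% of those of HMGB1, and the HMGB2 pseudogene up to 16.2% of those of HMGB2, so the levels of both genes are uncertain by reads that could belong to either copy.

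HMGA1 varied the most among the members between ways of lowering SMYD3. Its normalized counts were 68910, 64180 and 70660 in SMYD3 KO cells, against 10270, 9981 and 8869 in parental cells. This was 7.0-fold higher (log2 fold change 2.81 ± 0.05), the 889th of 16933 tested genes by size. With si1SMYD3, HMGA1 was 205.8, 282.1 and 271.5 CPM, against 947.5, 771.6 and 650.4 with siNC. Every treated library was lower there, 3.12-fold by the means (log2 fold change -1.64 ± 0.15), the 327th of 18965 genes.

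HMGA1 stayed near its controls in the other comparisons. With ASO081 it was 1609 and 1741 CPM, against 1419 and 1564 with PBS, not overlapping but not called (edgeR adjusted p = 0.0988). With siUHRF1 it was 1180, 1259 and 1222 CPM, against 1341, 1203 and 1203 with siNC, and the groups overlapped (log2 fold change -0.03 ± 0.05). HMGA1 was the only member not called with siUHRF1.

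HMGA2 was higher in each of the 3 SMYD3 comparisons and lower with siUHRF1. Its normalized counts were 7691, 8034 and 7287 in SMYD3 KO cells, against 3617, 3689 and 3279 in parental cells, 2.17-fold higher. With si1SMYD3 it was 108.1, 94.2 and 103.3 CPM, against 83.6, 72.7 and 70.4 with siNC (log2 fold change 0.43 ± 0.08). With ASO081 it was 131.8 and 158.9 CPM, against 112.8 and 119.0 with PBS (0.33 ± 0.08).

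No libraries overlapped in any of the 3. The ASO081 call (edgeR adjusted p = 0.00971) was lost without ASO081 replicate 2 (0.0539). With siUHRF1, HMGA2 was 159.3, 165.8 and 162.7 CPM, against 330.5, 327.9 and 335.6 with siNC, 2.04-fold lower without overlap. HMGA2 thus differed in direction from HMGB1, HMGB2, LMNA, LMNB1, LMNB2 and HMGA1 under si1SMYD3, all of which were called lower there.

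**Figure D2:**
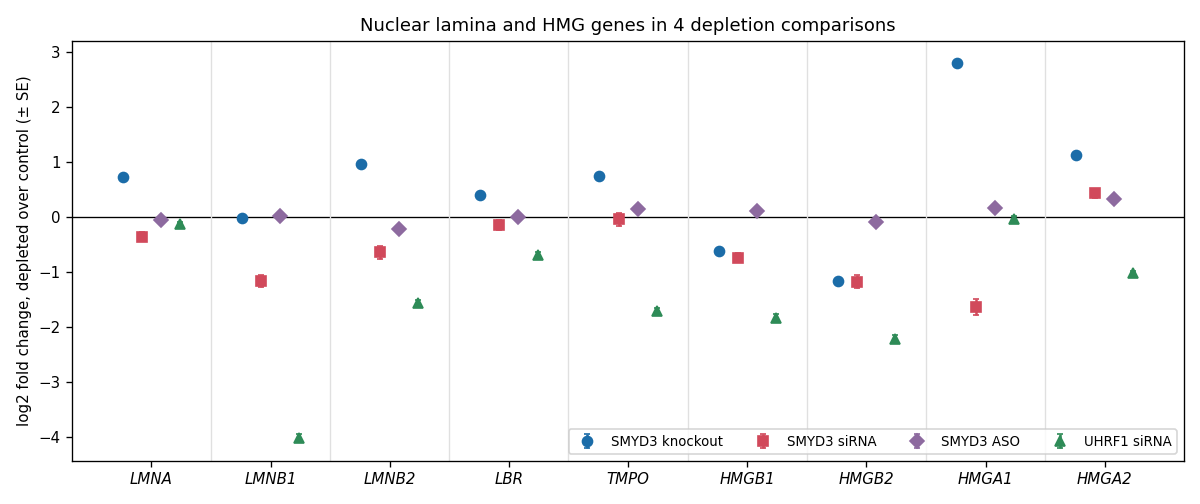
Log2 fold changes of depleted over control cells with their standard errors for each gene, 1 symbol per comparison. Values run from 2.81 for HMGA1 in the knockout to -4.02 for LMNB1 with the UHRF1 siRNA, and the ASO values lie between -0.22 and 0.33.

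Counted together, 6 members were called higher and 2 lower in SMYD3 KO cells, where limma called 84.7% of all tested genes (42.1% higher, 42.6% lower). With si1SMYD3, 1 was higher and 6 lower, where edgeR called 48.6% of genes (24.2% higher, 24.4% lower). With ASO081, 1 was higher and 1 lower, beside 21.7% of all genes (11.3% higher, 10.3% lower). With siUHRF1, 0 were higher and 8 lower, beside 64.7% of genes (32.0% higher, 32.7% lower). Libraries did not overlap for 8, 7, 6 and 8 members in that order of comparisons, beside 85.8%, 56.8%, 61.7% and 68.1% of all genes. Nothing is read from these counts, as the same comparisons had a part in choosing the members.

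By size, the median absolute log2 fold change of the members was 0.74 in the knockout, 0.65 with si1SMYD3, 0.10 with ASO081 and 1.56 with siUHRF1. Over all tested genes it was 0.74, 0.31, 0.17 and 0.45 in the same order. In the ASO comparison the call count rests on few libraries. Leaving out ASO081 replicate 1 called TMPO (adjusted p = 0.0202) and HMGA1 (0.0124) higher and HMGB2 (0.0415) lower, and leaving out PBS replicate 2 called HMGA1 (0.0436) higher.

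In the knockout comparison the scaling moved all genes together. Upper quartile factors shifted the median log2 fold change of all genes by -0.29 and leaving out mitochondrial genes by -0.37. The higher share of all calls was 49.7% as fitted, 37.1% with upper quartile factors and 33.4% without mitochondrial genes. The members' calls were then 6 higher and 3 lower, and 5 higher and 3 lower. HMGA1 was still at least 2.44 higher on the log2 scale under every setting, and HMGB2 between -1.52 and -1.13.

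The ratio of LMNA to LMNB1, each per base of exon, shows how the lamin mix differed between groups. Its size depends on the length used: by the longest transcript it averaged 40.2 with siUHRF1 and 2.69 with siNC. By merged exon length, used from here on, it was 21.5, 19.2 and 16.8 with siUHRF1, against 1.3, 1.28 and 1.27 with siNC. With si1SMYD3 it was 11.9, 12.3 and 11.8, against 5.9, 8.25 and 6.79 with siNC, and in SMYD3 KO cells 2.02, 1.81 and 2.16, against 1.27, 1.14 and 1.17 in parental cells. In each of these 3 comparisons every depleted library was above every control library, while with ASO081 the ratio was 1.62 and 1.57, against 1.72 and 1.67 with PBS. In the knockout LMNA was the gene of the ratio that stood apart from its control as fitted, and in the siRNA comparisons LMNB1 was lower by more than LMNA.

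The control libraries themselves differed between tables. The siNC libraries of the SMYD3 siRNA table had a mean LMNA to LMNB1 ratio of 6.98 ± 1.19 and those of the UHRF1 siRNA table had one of 1.28 ± 0.0159. Ratios of LMNB2 to LMNB1 averaged 6.31 ± 0.794 with siUHRF1 and 1.14 ± 0.0233 with siNC, and 3.46 ± 0.193 with si1SMYD3 and 2.45 ± 0.350 with siNC.

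The HMGA1 to HMGA2 ratio went in opposite directions. It was 59.3, 52.9 and 64.2 in SMYD3 KO cells, against 18.8, 17.9 and 17.9 in parental cells, and 49.1, 50.3 and 49.7 with siUHRF1, against 26.9, 24.3 and 23.7 with siNC. With si1SMYD3 it was 12.6, 19.8 and 17.4, against 75.0, 70.2 and 61.1 with siNC, and with ASO081 80.8 and 72.5, against 83.3 and 87.0 with PBS. None of these groups overlapped. By the longest transcript the HMGA1 to HMGA2 ratio was smaller, with a mean of 48.2 in PBS cells against 85.1 by merged exon length. The HMGB1 to HMGB2 ratio moved less, averaging 0.647 ± 0.0166 in SMYD3 KO cells and 0.444 ± 0.018 in parental cells, and 0.771 ± 0.0362 with siUHRF1 and 0.591 ± 0.00884 with siNC.

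**Figure D3:**
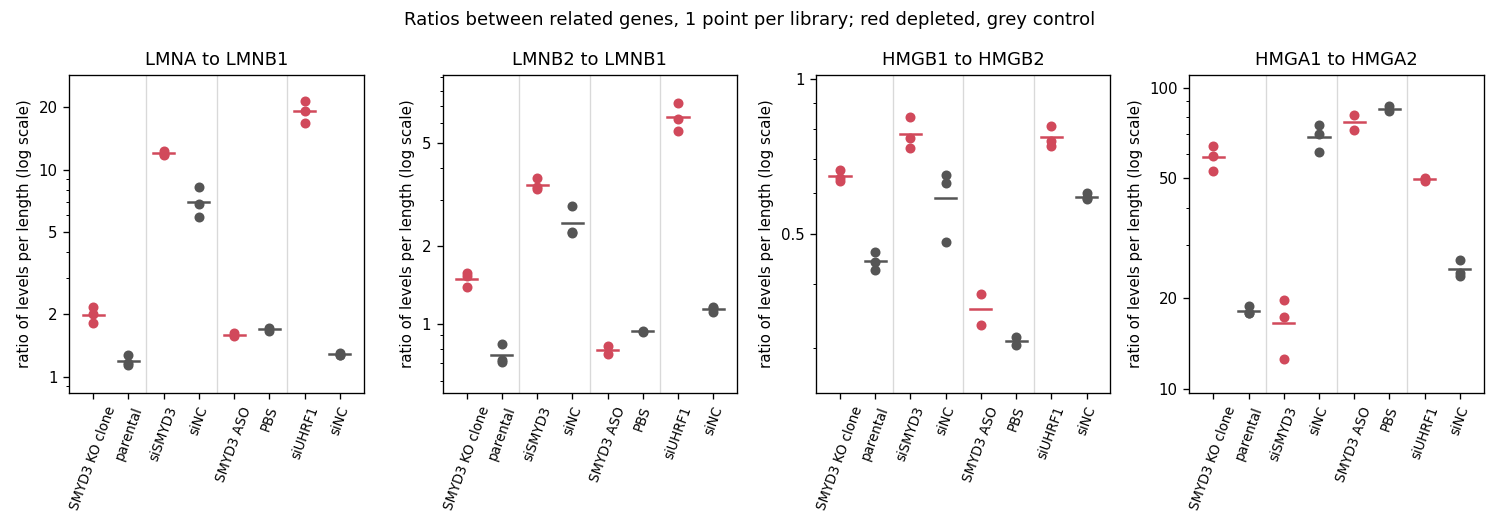
Ratios of levels per length between related genes, 1 point per library with group means as lines, depleted groups in red to the left of their controls in grey, on log axes. The LMNA to LMNB1 ratio with siUHRF1, between 16.8 and 21.5, stands above its siNC libraries, between 1.27 and 1.3.

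Per length, HMGA1 was the most abundant member in 3 of the 4 control groups. Its mean was 1600 ± 317 TPM (a level per base of exon on a common total, mitochondrial genes left out) in siNC cells of the SMYD3 siRNA table, 2700 ± 165 in PBS cells and 2460 ± 159 in siNC cells of the UHRF1 siRNA table. In parental HN-6 cells of the knockout table HMGB2 led with 831.0 ± 24.5 TPM, ahead of HMGA1 with 616.0 ± 43.3. HMGA1 and LMNA held the top ranks in SMYD3 KO cells, at 3600 ± 148 and 345.0 ± 12.3 TPM.

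Below them the order changed with the table, and is given here by merged exon length. In parental cells it ran HMGB1, LMNA, LMNB1, LMNB2, TMPO, LBR, HMGA2, with no neighbours overlapping over libraries. In PBS cells it ran HMGB2, LMNA, LMNB1, LMNB2, HMGB1, TMPO, LBR, HMGA2, also without overlap. In siNC cells of the UHRF1 siRNA table it ran HMGB2, LMNA, LMNB2, LMNB1, LBR, HMGB1, TMPO, HMGA2, where HMGB2 and LMNA, LMNB1 and LBR, and HMGB1 and TMPO could not be told apart by their ranges. In siNC cells from the si1SMYD3 experiment it ran LMNA, LMNB2, HMGB2, HMGB1, LMNB1, LBR, TMPO, HMGA2. Of these neighbours LMNB2 and HMGB2, and each from HMGB1 to HMGA2, overlapped. With the length of the longest transcript the order differed in every control group. PBS cells then ran LMNA, HMGB2, TMPO, HMGB1, LMNB2, LMNB1, LBR, HMGA2, where LMNA and HMGB2, and HMGB1 and LMNB2, overlapped. In parental cells LMNA and HMGB1, and LMNB1 and TMPO, overlapped by that length.

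LMNB1 was last in siUHRF1 cells at 9.12 ± 1.06 TPM, against 152.0 ± 5.03 in siNC cells, and last in si1SMYD3 cells at 13.9 ± 1.26, against 34.1 ± 5.99 in siNC cells. HMGA2 was last in every control group by merged exon length, which counts 15403 bases for it. With the length of the longest transcript (8094 bases) it was last in parental and PBS cells only.

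**Figure D4:**
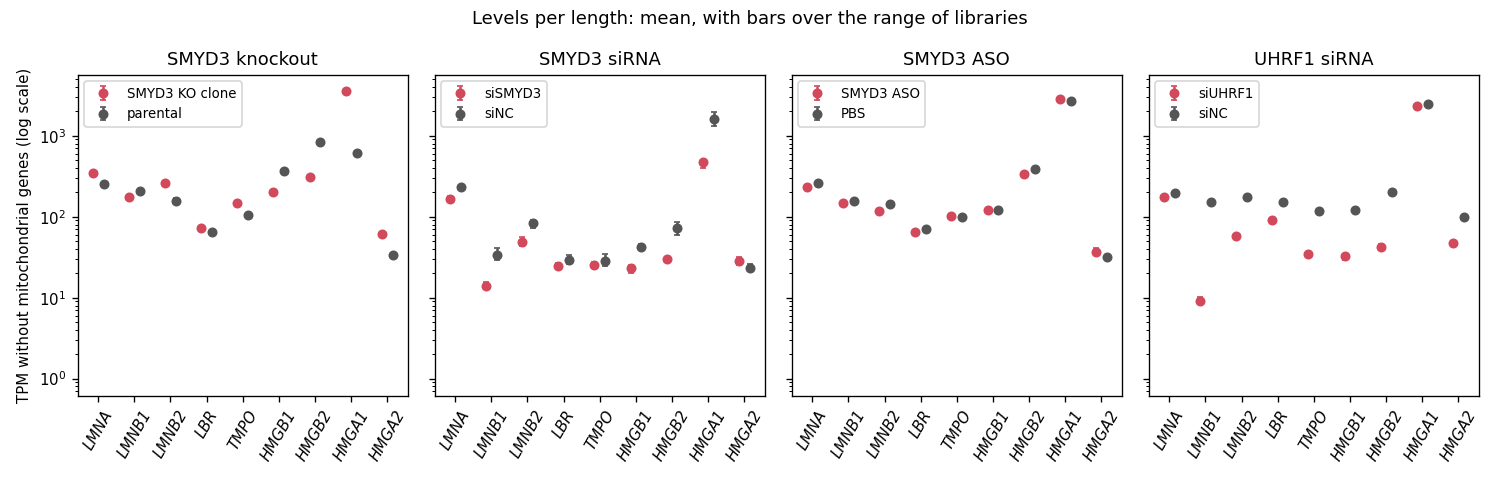
Levels per length of the 9 genes (TPM, mitochondrial genes left out) as means, with bars from the lowest to the highest library, depleted cells in red left of their controls in grey, on a shared log axis. HMGA1 reaches 3600 TPM in SMYD3 KO cells, and LMNB1 is at 9.12 TPM in siUHRF1 cells. Tables were processed separately, so levels across panels are set side by side without a test.

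Companion lists of genes with related roles give the setting of these changes, and were tested in the same fits. No list was tested as a set. Their counts are to be read beside the shares of all genes called. These were 42.1% higher and 42.6% lower in SMYD3 KO cells, and 24.2% and 24.4% with si1SMYD3. With ASO081 they were 11.3% and 10.3%, and with siUHRF1 32.0% and 32.7%. In SMYD3 KO cells, nuclear pore genes were mostly higher: 12 of 14 rose, 1 fell, and the median was 1.10 (log2). With upper quartile factors 11 were higher and 2 lower (median 0.83), and without mitochondrial genes 10 and 3 (0.74). NUP188, a scaffold nucleoporin, rose by 1.70 ± 0.04, and POM121, a membrane nucleoporin, by 1.67 ± 0.04 on the log2 scale. Of 13 inner nuclear membrane and lamina partners, 8 rose and 5 fell, at a median of 0.24 that became -0.04 with upper quartile factors and -0.13 without mitochondrial genes. TMEM201, an inner membrane protein, averaged 1750 in SMYD3 KO cells and 666.0 in parental cells, while BANF1, which links chromatin to the envelope, fell by 0.64 ± 0.04.

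The LINC complex, which couples lamina and cytoskeleton, split: SUN2 rose by 1.48 ± 0.05, SYNE2 fell by 1.01 ± 0.11 and SYNE4 by 3.00 ± 0.17. Of the enzymes that mature prelamin, ZMPSTE24, the protease that cuts prelamin A, rose by 1.27 ± 0.04 and ICMT, the carboxyl methyltransferase, by 1.01 ± 0.04. Of the 5 enzymes 3 rose and 2 fell, but 2 were higher and 3 lower with upper quartile factors or without mitochondrial genes, where the median log2 fold change of 0.13 became -0.15 and -0.24. In the list of HMGN genes and HMGB3, 1 rose and 5 fell. HMGN3 was the furthest down, at 1930 normalized counts in SMYD3 KO cells and 5870 in parental cells. Among other HMG-box proteins SSRP1, a subunit of the histone chaperone FACT, rose by 1.47 ± 0.03, and 7 of 10 rose and 3 fell. These counts were 6 and 4 with upper quartile factors and 5 and 4 without mitochondrial genes, and the median of 0.58 became 0.30 and 0.21.

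HMGB1 receptors were tested for 3 genes in the knockout comparison. TLR4 averaged 1250 in SMYD3 KO cells and 66.2 in parental cells, TLR2 rose by 1.03 ± 0.07, and AGER fell by 3.11 ± 0.11. Cell cycle genes also differed: 16 of 16 S phase genes rose (MCM2, a helicase subunit, by 1.75 ± 0.04), and 14 of 21 G2/M genes rose and 5 fell. Under upper quartile factors 9 G2/M genes were higher and 8 lower, without mitochondrial genes 9 and 10, and 13 S phase genes were higher and 1 lower under each. MKI67, a marker of dividing cells, averaged 21840 ± 1838 in SMYD3 KO cells and 12000 ± 356 in parental cells. Of 13 senescence arrest and secretory genes 8 rose and 3 fell, at a median log2 fold change of 1.36.

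Markers of other cell types also differed in the knockout comparison. The 3 of 8 leukocyte markers that the table lists summed to 10230 to 10820 normalized counts in SMYD3 KO cells and 1394 to 1499 in parental cells. CD68, a lysosomal protein used as a macrophage marker, made up nearly all of this (10600 and 1340), while CD14 and LYZ fell. The 3 of 6 fibroblast markers listed, COL1A1, LUM and PDGFRB, all fell, and summed to 525.3 to 597.5 in SMYD3 KO cells and 1934 to 2074 in parental cells. The part of either list in the members' values was not tested.

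With si1SMYD3 the dividing-cell genes fell with LMNB1, HMGB1 and HMGB2: 21 of 21 G2/M genes (median log2 fold change -1.20) and 13 of 16 S phase genes (-0.55), with 0 higher. MKI67 averaged 29.5 ± 3.55 CPM with si1SMYD3 and 74.5 ± 21.4 with siNC, and CCNB1, the mitotic cyclin, fell by 2.05 ± 0.14. What part a change in dividing cells has in the members' values was not tested. Of 14 nuclear pore genes 8 rose and 2 fell, with NUP133 up by 0.81 ± 0.08 and NUP210 down at 58.6 CPM with si1SMYD3 and 92.5 with siNC.

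ZMPSTE24 rose by 0.46 ± 0.07 with si1SMYD3, while BANF1 fell by 0.50 ± 0.08, and HMGB3, the third HMGB gene, fell by 0.69 ± 0.09. Of 13 senescence arrest and secretory genes, 9 rose and 3 fell, at a median of 0.97. The largest changes among them were cytokines: IL1A averaged 20.4 CPM with si1SMYD3 and 4.8 with siNC, IL1B 25.9 and 7.47, and IL6 22.3 and 6.13. LIN28B, which blocks let-7 microRNAs, which in turn repress HMGA2, averaged 2.45 CPM with si1SMYD3 and 4.41 with siNC. The 6 fibroblast markers summed to 221.1 to 263.3 CPM with si1SMYD3 and 135.0 to 157.9 with siNC, and 4 of the 5 tested rose, LUM to a mean of 121.0 CPM with si1SMYD3 against 50.7 with siNC. COL1A2 was at 0 in the siNC libraries. The part of this in the members' values was not tested.

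With ASO081 the cell cycle lists moved apart. Of 16 S phase genes 9 rose and 0 fell, with PCNA, the polymerase clamp, up by 0.43 ± 0.06, while of 21 G2/M genes 0 rose and 7 fell, with KIF20A, a mitotic kinesin, down at 59.5 CPM with ASO081 and 77.5 with PBS. Of 6 LINC genes 4 fell, SUN2 by 0.62 ± 0.06. ZMPSTE24 rose by 0.37 ± 0.06 and TMEM201 by 0.51 ± 0.08. No nuclear pore gene of 14 was called by edgeR. Of 13 senescence genes 6 rose and 1 fell, at a median of 0.005. CXCL8, a chemokine of that list, averaged 49.6 CPM with ASO081 and 25.0 with PBS. The fibroblast markers summed to 94.8 to 112.1 CPM with ASO081 and 119.0 to 120.7 with PBS, and 2 of the 3 tested fell. Over all companion lists 27 genes were higher and 14 lower, and the lower count became 7 without PBS replicate 2 and 9 with DESeq2.

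With siUHRF1 all 21 G2/M genes (median log2 fold change -2.95) and all 16 S phase genes (-2.53) fell. TYMS, thymidylate synthase, averaged 8.07 CPM with siUHRF1 and 130.0 with siNC, and GINS2, a replication factor, 1.49 and 38.0. MKI67 averaged 81.0 ± 6.66 CPM with siUHRF1 and 658.4 ± 64.9 with siNC. LMNB1, at -4.02, lay beyond the medians of these lists, and HMGB2, at -2.21, short of them. The share of the members' differences that goes with fewer dividing cells was not tested.

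Of 14 nuclear pore genes 10 fell and 4 rose with siUHRF1, NDC1, a membrane nucleoporin, by 1.91 ± 0.06 down. Of 13 inner membrane partners 9 fell and 2 rose, with NEMP1, an inner membrane protein, at 39.0 CPM with siUHRF1 and 149.0 with siNC. ICMT fell by 1.78 ± 0.05, and HMGB3 by 2.11 ± 0.07. Among the 10 other HMG-box proteins 6 rose and 4 fell, at a median of 0.17. Of these, SSRP1 fell by 0.83 ± 0.05, while BBX rose by 0.47 ± 0.05. Of 13 senescence genes 8 rose and 3 fell, at a median of 0.37. CDKN2B, a cyclin-dependent kinase inhibitor, rose by 2.10 ± 0.06 and IGFBP3, a secreted binding protein, averaged 180.0 CPM with siUHRF1 and 33.5 with siNC, while IL1A fell by 1.80 ± 0.07. TLR4 fell by 2.34 ± 0.15. The 6 fibroblast markers summed to 503.9 to 578.4 CPM with siUHRF1 and 118.6 to 119.7 with siNC. COL1A1 made up most of that sum (504.0 and 82.2). Of the 3 fibroblast markers tested, 1 rose and 1 fell, at a median log2 fold change of -0.03. DCN was at 0 in siUHRF1 libraries. The part of these markers in the members' values was not tested.

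**Figure D5:**
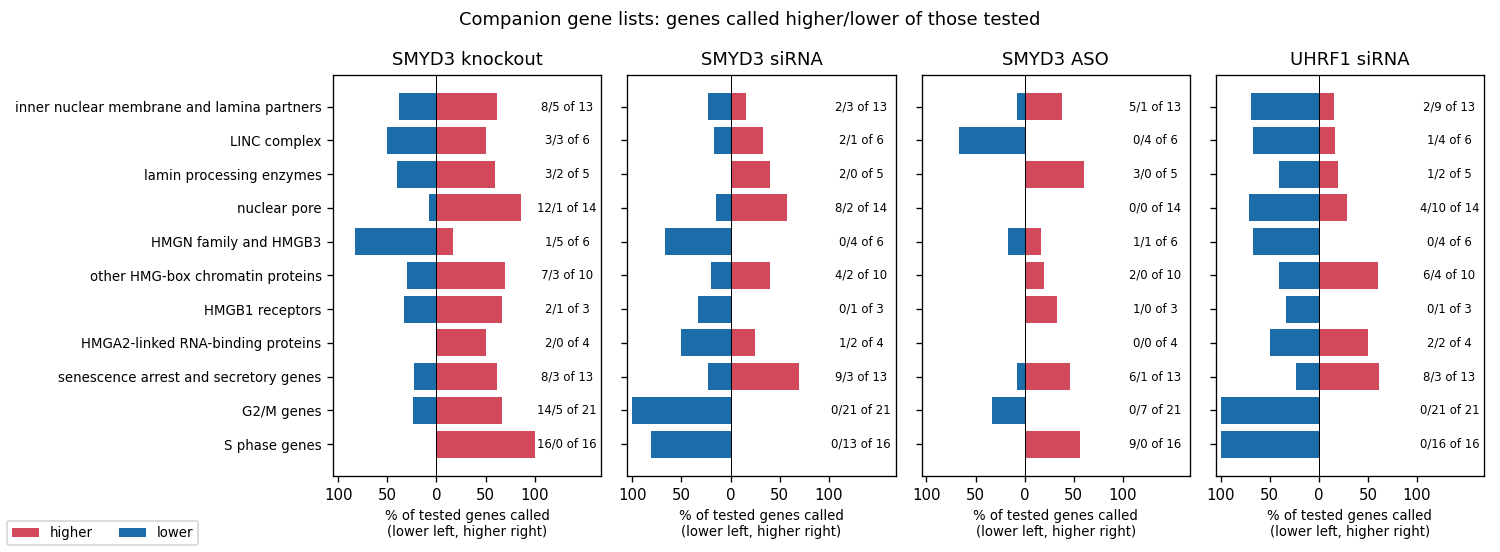
Share of tested genes in each companion list called higher (red, right) or lower (blue, left) in each comparison, with the counts printed as higher/lower of tested. G2/M and S phase genes are nearly all lower with both siRNAs, and S phase genes are all higher in the knockout.

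Likeness was computed over the 22 libraries on log2(CPM + 1) minus the mean of the control libraries of the same comparison. On that scale LMNB1 was most like H2AFZ (Pearson r = 0.995), TYMS (0.995) and FANCI (0.994), out of 7473 genes of sufficient level. HMGB1 was most like NDC80 (0.993), CETN2 (0.992) and IFT52 (0.99), and HMGB2 most like NDC80 (0.986), CDCA4 (0.983) and GLRX5 (0.979). TMPO was nearest to C4orf46 (0.995), NCAPG2 (0.995) and ATAD2 (0.994), LBR to ECT2 (0.977), BRCA1 and TMEM56 (0.976 each), and LMNB2 to POLD2, TPX2 (0.989 each) and CDCA5 (0.984).

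LMNA was nearest to UBE2J2 (0.979), ABLIM3 and MELTF (0.976 each), HMGA1 to HMOX2 (0.996), CARD10 (0.994) and JOSD1 (0.992), and HMGA2 to TFAM, SENP1 and SRBD1 (0.988 each). Among the members themselves r was 0.979 for HMGB1 with HMGB2, 0.956 for LBR with TMPO and 0.955 for LMNA with HMGA1, against -0.007 for HMGB1 with HMGA1. These correlations are descriptions. Subtracting the control means took out differences in control level between the 4 tables. The libraries fall into 8 groups, and this step centres the control groups on 0. A high r can therefore come from the differences of the 4 depleted groups from their controls alone. These were not separated from differences between libraries. Of the 27 nearest genes, 8 were also nearest over the 16 libraries of the count tables alone.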

How the data were processed

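RNA was sequenced from stranded mRNA libraries, per the labels' protocols. The submitters' processing notes name hg38, bcl2fastq and Bowtie. Versions, the role of each tool, the counter and its annotation: not given in the sources used here. Deposited read counts per gene make up the 2 siRNA tables and the ASO table. The knockout table holds a deposited signal, read counts divided by 1 factor per library: 100% of values were whole reads within 0.01 once divided by a step of 0.744 to 1.27. It was tested with limma 3.58.1 (trend, robust) on log2(value + 1), for genes at 10 or more in at least 3 libraries. A fold change on that scale understates low genes. Counts were tested with edgeR 4.0.16 (filterByExpr, TMM, robust quasi-likelihood, two-sided) in R 4.3.3. P-values were adjusted over all genes by the Benjamini-Hochberg method and called under 0.05. The fits were tested on simulated data. Replicates differed by more than sampling noise, and since nothing says whether they were separate cultures beyond being named biological, p-values cover the spread between these libraries. Lines without a symbol in the SMYD3 siRNA table, at most 0.917% of reads, took the annotation's symbol for their Ensembl ID. Where it had none they were kept under that ID. Levels per length left out names that the annotation lacks.

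The members and lists were chosen with earlier results of these data known. The text names the members, SMYD3, UHRF1, MKI67, up to 3 called genes with the largest change per list and comparison, marker genes a result touches, and the 3 genes most like each member (mean log2(CPM + 1) of at least 4). BANF1 in the knockout and the promoter windows printed were picked after values were seen. Levels per length used GENCODE release 29 merged exons. Alternatives were DESeq2 1.42.0, other scaling factors, pseudocount and filters, no mitochondrial genes, a replicate block and leaving out each library.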

Additional observations from a re-analysis of the deposited data

Results flagged for a closer look

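For 4 members the libraries lay entirely above their control in one SMYD3 comparison and entirely below it in another, and none of these differences was tested. For HMGA1 the log2 fold change in SMYD3 KO cells exceeded that with si1SMYD3 by 4.45, and that with si1SMYD3 minus that with ASO081 was -1.81. For LMNB2 the knockout value exceeded that with si1SMYD3 by 1.62 and that with ASO081 by 1.19. For LMNA the knockout value exceeded that with si1SMYD3 by 1.08 and that with ASO081 by 0.79. For HMGB1 the knockout value minus that with ASO081 was -0.71, and that with si1SMYD3 minus that with ASO081 was -0.84. The ASO values of LMNA, HMGB1 and HMGA1 were not called by themselves, and the comparisons differ in table, control and duration. With 2 or 3 libraries a group, single libraries could not be examined as outliers.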

How the results depend on the processing

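Of 378 fold changes of members refitted under alternatives, 353 kept their direction and their side of the threshold, 7 lost the call, 11 gained one and 7 changed sign. None of the 7 that changed sign was called: in the knockout LMNB1 was 0.02 without KO replicate 3 and 0.016 without parental replicate 3 (-0.047 to 0.02 over libraries left out). With si1SMYD3 TMPO was 0.129 without siNC replicate 1 (-0.13 to 0.129). With ASO081 LMNB1 was -0.004 without PBS replicate 1 (-0.004 to 0.069), and LBR was 0.033 without ASO081 replicate 1 and 0.053 without PBS replicate 1 (-0.051 to 0.053). With siUHRF1 HMGA1 was 0.011 without siNC replicate 1 (-0.071 to 0.011). The cause was not tested. In the ASO comparison the members called higher numbered 1 as fitted and 2 with no filter, and the members lower 1. With the replicate block they were 4 and 2, as TMPO (adjusted p = 0.00379), HMGB1 (0.0313) and HMGA1 (0.000365) were called higher and HMGB2 (0.0313) lower by edgeR. That block raised the share called over all genes of the ASO comparison from 21.7% to 37.1%. Leaving out a library gave 0 to 3 higher and 0 to 1 lower, where the lone library of an arm is assumed to vary like the other group. Companion genes lower with ASO081 numbered 14, but 9 with DESeq2, 25 with the replicate block and 7 to 15 on leaving out a library. Companion genes lower in the knockout numbered 28, but 45 without mitochondrial genes. Of the 27 genes most like a member, 8 were shared with the count tables alone. The replicate block changed no call of a member in the other 3 comparisons. Same-numbered libraries correlated between -0.089 and 0.05 in the knockout and -0.033 and 0.029 with siUHRF1. Different-numbered ones there lay between -0.106 and 0.08, and between -0.044 and 0.068. With si1SMYD3 same-numbered values were 0.234, 0.329 and -0.051, against -0.416 to 0.241 for different numbers. With ASO081 they were 0.23 against -0.23, which mirror each other by construction with 2 libraries a group. These values do not settle whether libraries were paired. The main fits did not pair them, as the labels do not say what the numbers mark. Depth does not limit the members, whose lowest library had 378 reads (LMNB1 with siUHRF1), but 2 libraries a group limit the ASO comparison. No protein features could be computed here.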
